A study of Homo sapiens with 9 samples.

Results

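The effect shared by loss of the non-canonical NF-kB subunits NFKB2 and RELB was measured in U2OS cells, a single human osteosarcoma line. It is the average of both knockdowns, each weighted equally, against the control siRNA, together with the genes that moved the same way in both. All 9 libraries analysed were used, namely 3 siNFKB2 libraries, from cells given siRNA against NFKB2, 3 siRELB libraries, from cells given siRNA against RELB, and 3 siNS libraries, the controls with non-silencing siRNA. All cells were transfected with Lipofectamine RNAiMAX at 75 nM siRNA in total, RNA was taken 48 h later, and the libraries cover RNA selected with oligo-dT. Of 14815 genes tested, 130 moved the same way in both knockdowns, at an adjusted p below 0.05 in each. The siRNA sequences are not given. There is no untransfected group, so an effect of the siNS siRNA itself cannot be told apart from a change shared by both knockdowns.

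NF-kB proteins bind DNA as pairs. In the canonical branch, RELA and p50, made from NFKB1, are held in the cytoplasm by inhibitors of the IkB family until signals such as TNF destroy the inhibitor. In the non-canonical branch, the kinase NIK (MAP3K14) triggers processing of the NFKB2 product p100 to p52, which acts with RELB. Unprocessed p100 also retains other NF-kB subunits in the cytoplasm, and RELB can pair with p50, so the genes under each protein are not identical. Mesenchymal and bone-derived cells use these pathways to control cytokines, matrix and differentiation.

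The levels of the targeted genes bear on the labels. NFKB2 lies on chromosome 10 (102394110 to 102402529, plus strand, GENCODE 29 on GRCh38). Relative to its siNS mean it stood at 4.86%, 21.1% and 44.8% in siNFKB2 replicates 1, 2 and 3, and at 109%, 156% and 155% in siRELB. RELB lies on chromosome 19 (45001430 to 45038198, plus strand). Relative to its siNS mean it stood at 77.6%, 154% and 158% in siNFKB2, and at 9.79%, 17.1% and 19.7% in siRELB. Each target was thus low in its own knockdown, and neither was low in both. The average over both knockdowns was -0.80 on the log2 scale for NFKB2 (adjusted p = 0.292) and -1.15 for RELB (adjusted p = 0.0306), so for these genes the average stands for opposite levels in the groups. The RELB call in the average was lost without siNS replicate 2 (adjusted p = 0.108), siNS replicate 3 (0.176), siNFKB2 replicate 2 (0.0603), siRELB replicate 1 (0.0575) or siRELB replicate 2 (0.0637).

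Total counts were 15011789 to 19279572 per library. The libraries numbered 1 stood apart from the others: on the second principal component, which held 24.7% of the variance, siNFKB2, siRELB and siNS replicate 1 were at 35.6, 31.6 and 26.8, and the other 6 libraries lay between -49.3 and 4.92. The first component, with 46.8%, set the siNFKB2 libraries (26.7, 60.4 and 62.6) against those of siRELB (-31.0, -25.5 and -24.9) and siNS (-28.6, -18.1 and -21.5), which overlapped. Mitochondrial rRNA took 0.519% to 2.68% of counts in siNFKB2, 0.379% to 0.856% in siRELB and 0.406% to 1.33% in siNS. The bone-lineage genes SPARC and COL1A1 were at 1194 to 1654 and 518 to 1074 CPM (counts scaled to library size), while the osteoblast factor SP7 and the late marker BGLAP reached at most 0.0542 and 0.0625 CPM. Blood markers summed to 24.2 to 32.7 CPM in siNFKB2, 21.3 to 25.1 in siRELB and 27.8 to 28.8 in siNS, with CD3E at 0 in all libraries. CD68, at a mean of 18.4 CPM, was the highest of them.

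Averaged over both knockdowns, 750 genes rose and 818 fell against siNS at an adjusted p below 0.05, which is 10.6% of the genes tested. The count was 240, 612, 745, 785, 812 and 1020 without siNS replicate 3, siNS replicate 2, siRELB replicate 2, siRELB replicate 3, siNFKB2 replicate 2 and siNFKB2 replicate 3, and 3331 without siNS replicate 1. Most of these genes were not called in both groups, though a missing call does not show that a group was unchanged. Of the 1568 genes, 1317 were also called in siNFKB2 and not in siRELB, 75 in siRELB and not in siNFKB2, 130 in both the same way and 46 in neither. The separate comparisons called 3869 genes in siNFKB2 (26.1%) and 299 in siRELB (2.02%), and 3934 genes (26.6%) differed between siNFKB2 and siRELB. Of the 1568 genes, 949 were among those that differed, and for 619 no difference was called. Opposite signs in the knockdowns were seen in 120 of the 1568. A further 29 genes were called in opposite directions in the 2 knockdowns, 12 of them higher in siNFKB2. In bulk RNA, fewer cells in a given state and less RNA per cell cannot be told apart.

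The 130 genes with the same call in both knockdowns, 0.877% of those tested, comprised 93 rises (0.628%) and 37 falls (0.25%). Both comparisons share the 3 siNS libraries, so a siNS library that stands apart moves both at once. In all 130 genes the 6 knockdown libraries did not overlap the 3 siNS libraries, against 8.87% of all genes (4.9% higher and 3.97% lower), a share given for scale since the calls came from the same libraries. The median log2 fold change of the rises was 1.18 in siNFKB2 and 0.99 in siRELB, and that of the falls was -0.90 and -0.81, against -0.02 for the average over all genes. The genes were chosen by these same comparisons, so the medians follow from the choice and are given for scale. Of the 130 genes, 67 changed at least 2-fold in the average, 53 of them upward. Between siNFKB2 and siRELB, 35 of the 130 genes differed, 27 lying farther from siNS in siNFKB2 and 8 in siRELB, and for 95 no difference was called. At the edge of the call, F2RL2 and SLC25A11 were inside, each at a larger adjusted p of 0.0495, and ROBO1 (0.0511) and COPS7A (0.052) were outside.

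**Figure D1:**
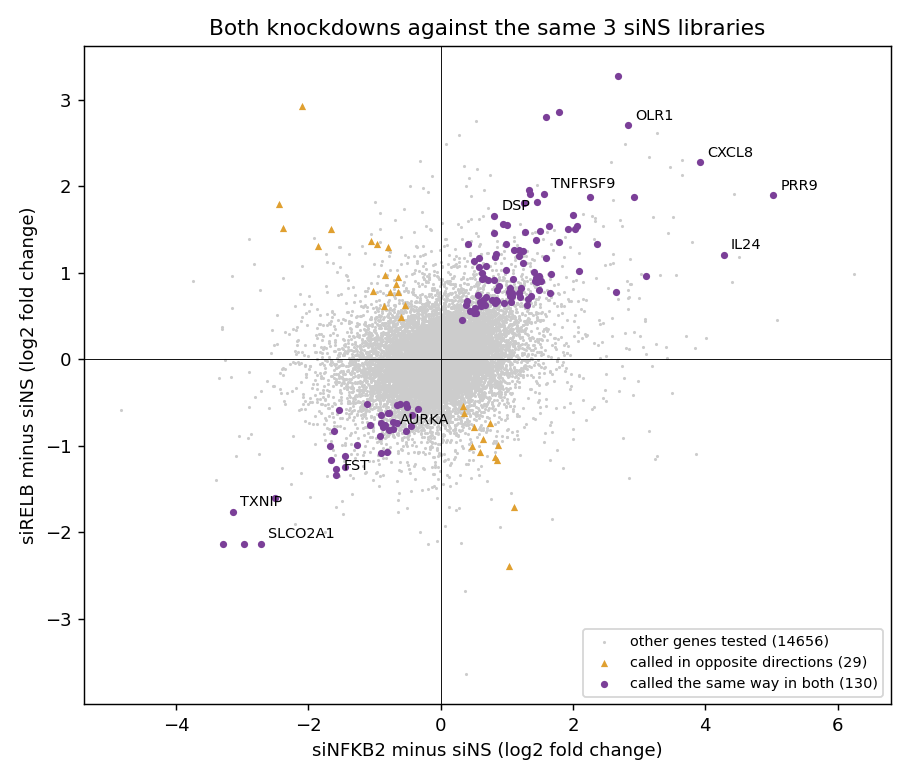
Each point is 1 of 14815 genes, with its log2 fold change in siNFKB2 against siNS on the x axis and in siRELB against siNS on the y axis; both axes use the same 3 siNS libraries. The 130 genes called the same way in both (purple circles, 93 in the upper right and 37 in the lower left) lie mostly near the diagonal, with PRR9, IL24 and CXCL8 toward the siNFKB2 side and the 29 genes called in opposite directions (orange triangles) in the other corners.

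The number of shared genes depended on which libraries entered. It was 5 without siNS replicate 3 and 21 without siNS replicate 2, but 1012 without siNS replicate 1. It was 6, 15 and 72 without siRELB replicates 2, 3 and 1, and 64, 68 and 140 without siNFKB2 replicates 2, 3 and 1. Without all 3 libraries numbered 1 it was 1678, among them 128 of the 130. CCDC144NL-AS1 and DSP were among the genes that kept the same-way call in all 9 fits that left out 1 library. When the larger p of the 2 comparisons was taken for each gene and adjusted once, 10 genes remained, among them FST, HIST2H2BE, IL24, NXPH2, ODAPH, OLR1, SLCO2A1, CCDC144NL-AS1 and LOC441666. A fit of 2 groups, 6 knockdown libraries against 3 siNS libraries, called 41 genes, all 41 among the 130. Such a fit counts the difference between the knockdowns as error, so genes with unequal effects lose the call more readily. Of its 41 genes, 4 differed between siNFKB2 and siRELB. In that fit 73 of the 99 named genes called in the average lost the call, among them PRR9 (adjusted p = 0.135), CXCL8 (0.0736), IL24 (0.153), DSP (0.108), PTX3 (0.0672), TXNIP (0.0549) and FN1 (0.108), while OLR1, FST and CCDC144NL-AS1 kept it.

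**Figure D2:**
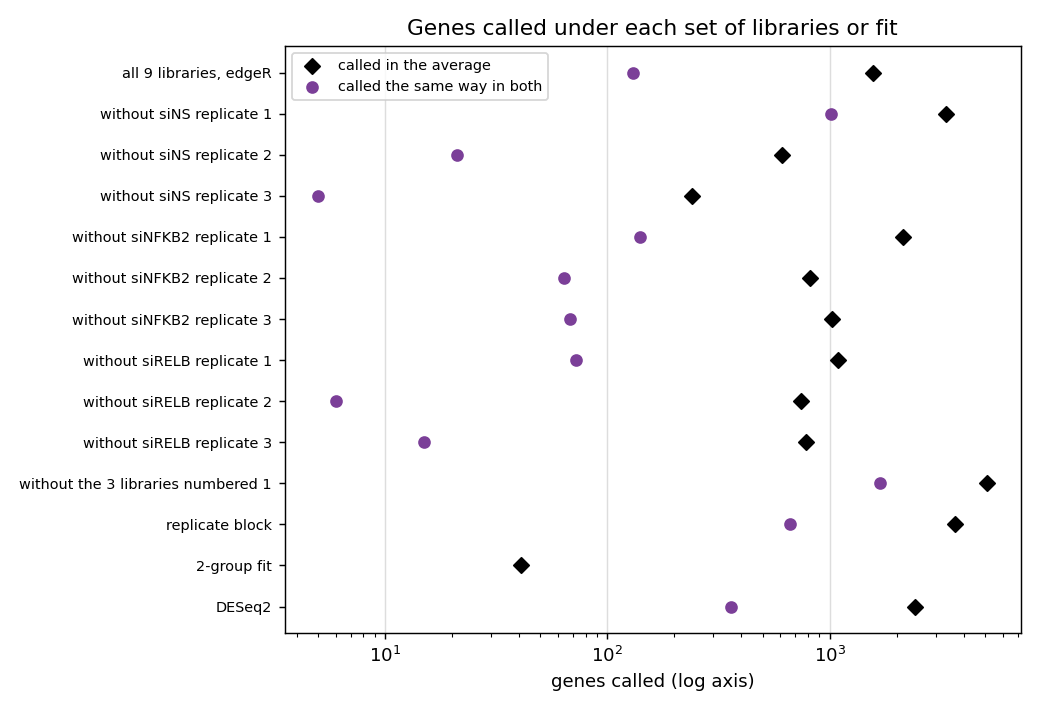
The number of genes called (x axis, log scale) in the average (black diamonds) and the same way in both knockdowns (purple circles), for all 9 libraries and for each alternative on the y axis. The same-way count lies at 130 with all libraries, at 5 without siNS replicate 3 and at 1012 without siNS replicate 1; the 2-group fit gives only an average.

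Among the shared rises were genes for inflammatory mediators and receptors, several of them known NF-kB targets. CXCL8, the neutrophil chemokine interleukin-8 (chromosome 4, 73740506 to 73743716, plus strand), was at 41.0, 118 and 117 CPM in siNFKB2 replicates 1 to 3, 14.6, 38.6 and 35.0 in siRELB and 4.84, 6.19 and 7.19 in siNS. Every knockdown library was above every siNS library, which the rule for naming CXCL8 required. Replicate 1 was the lowest of its group in all 3 groups. The log2 fold change was 3.10 in the average (SE 0.436, adjusted p = 0.00388), 3.92 in siNFKB2 and 2.27 in siRELB. IL24, an IL-10 family cytokine, was at 50.6, 56.5 and 48.0 CPM in siNFKB2, 6.10, 5.75 and 6.57 in siRELB and 3.26, 2.38 and 2.31 in siNS. Its groups were tight and lay in 3 separate bands, with log2 fold changes of 4.28 in siNFKB2 and 1.21 in siRELB that differed from each other (adjusted p = 2.89e-05). TNFRSF9, the co-stimulatory receptor 4-1BB, was at 25.7, 54.5 and 48.0 CPM in siNFKB2, 34.2, 63.7 and 65.3 in siRELB and 14.2, 15.5 and 13.6 in siNS, a log2 fold change of 1.74 (adjusted p = 0.00651, and 0.0508 without siNS replicate 3). In both knockdowns its replicate 1 was the lowest library, while the siNS libraries were alike. PTX3, a secreted pentraxin of innate immunity, was at 31.5, 48.4 and 39.4 CPM in siNFKB2, 20.8, 32.7 and 30.3 in siRELB and 14.5, 15.1 and 14.3 in siNS, a log2 fold change of 1.19 (adjusted p = 0.00527).

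OLR1, the receptor for oxidised LDL (chromosome 12, 10158301 to 10172138, minus strand), was at 35.2, 88.8 and 61.6 CPM in siNFKB2, 58.4, 56.9 and 54.3 in siRELB and 11.3, 6.57 and 8.07 in siNS. Its siRELB libraries were nearly identical and lay inside the range of the siNFKB2 libraries. The log2 fold change was 2.83 in siNFKB2 and 2.7 in siRELB, and no difference between them was called (adjusted p = 0.773). The same-way call of OLR1 held in 8 of the 9 fits that left out 1 library.

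The largest shared rise was PRR9, a proline-rich gene of the epidermal differentiation complex (chromosome 1, 153217584 to 153219317, plus strand). It was at 9.93, 21.1 and 17.5 CPM in siNFKB2, 1.69, 2.01 and 1.81 in siRELB and 0.473, 0.50 and 0.494 in siNS. PRR9 was near the floor in siNS and passed the count filter through the knockdown libraries. The size of its fold change is therefore uncertain. The log2 fold change was 3.46 in the average (SE 0.312, adjusted p = 0.000774), 5.03 in siNFKB2 and 1.89 in siRELB, and it was larger in siNFKB2 (adjusted p = 0.000146). Other genes of that complex, of the cornified layer and of cell junctions were picked out after their values were seen. HRNR, which encodes hornerin, was at 3.01, 3.19 and 2.78 CPM in siNFKB2, 3.12, 4.83 and 3.56 in siRELB and 1.42, 1.06 and 0.768 in siNS, a log2 fold change of 1.63 (adjusted p = 0.00604). DSP, the desmosomal plaque protein desmoplakin (chromosome 6, 7541575 to 7586717, plus strand), was at 11.4, 11.1 and 9.0 CPM in siNFKB2, 19.9, 18.3 and 18.5 in siRELB and 7.36, 6.00 and 4.61 in siNS. Its rise was larger in siRELB, at 1.66, than in siNFKB2, at 0.81 (adjusted p of the difference = 0.00714). CLDN1, the tight junction protein claudin-1, was also farther from siNS in siRELB (1.45) than in siNFKB2 (0.80), and its average of 1.13 (adjusted p = 0.00845) was lost without siNS replicate 3 (adjusted p = 0.068).

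CDH1, the epithelial adhesion protein E-cadherin, was low throughout, at 2.79, 2.03 and 2.98 CPM in siNFKB2, 3.53, 3.20 and 3.28 in siRELB and 1.52, 1.69 and 1.21 in siNS. Its log2 fold change was 1.00 (adjusted p = 0.0172, and 0.106 without siNS replicate 3). MPZL3, a membrane protein with an immunoglobulin domain, averaged 5.22 ± 0.525 CPM in siNFKB2, 3.87 ± 0.372 in siRELB and 1.5 ± 0.397 in siNS (SD, n = 3 each), a log2 fold change of 1.57 (adjusted p = 0.00352). ODAPH, a secreted phosphoprotein needed for tooth enamel, averaged 39.2 ± 2.26 CPM in siNFKB2, 38.7 ± 9.14 in siRELB and 13.8 ± 1.88 in siNS (SD, n = 3 each). It had nearly equal log2 fold changes, 1.51 in siNFKB2 and 1.49 in siRELB. FLG-AS1, an antisense RNA across the filaggrin locus, rose by 0.87 (adjusted p = 0.0124), and its call was lost without siNS replicate 2 (0.0605) and replicate 3 (0.0722). FLG itself, whose exons overlap those of FLG-AS1 over 704 bases on the opposite strand, was called in the average alone, at 1.03 (adjusted p = 0.0352). Whether counting used the strand is not given, so reads of this pair may not be told apart. Of the 12 epithelial markers, 5 were tested, and CDH1 rose and KRT8 fell in the average. Their sum was 578.5 to 683.6 CPM in siNFKB2, 642 to 729 in siRELB and 637 to 941 in siNS, mostly KRT18, with EPCAM and KRT19 at means of 1.97 and 0.0194 CPM, and their part in the junction genes was not tested.

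**Figure D3:**
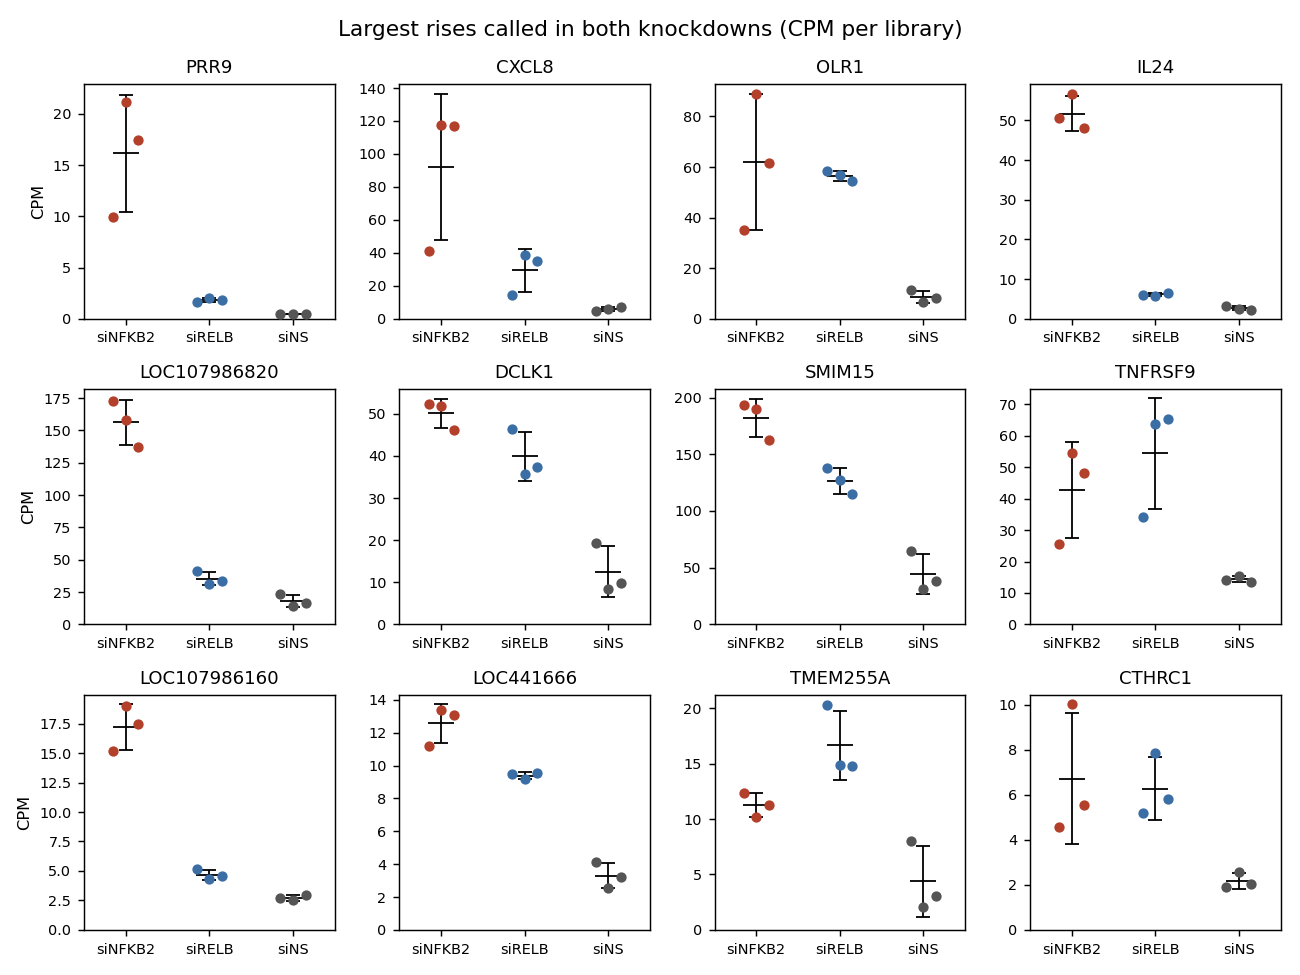
CPM per library (y axis, from 0, scale differs by panel) for the 12 largest shared rises with a mean of at least 5 CPM; points are libraries in the order of replicates 1 to 3, the long bar is the mean and the error bar 1 SD of 3 libraries. All siNFKB2 (red) and siRELB (blue) points lie above the siNS points (grey), which the choice of these genes required. In PRR9, IL24, LOC107986820 and LOC107986160 siRELB lies much closer to siNS than siNFKB2 does.

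DCLK1, a microtubule-associated doublecortin-like kinase, was at 52.3, 51.8 and 46.1 CPM in siNFKB2, 46.4, 35.8 and 37.4 in siRELB and 19.4, 8.44 and 9.71 in siNS, a log2 fold change of 1.83 (adjusted p = 0.0036). SMIM15, a small membrane protein, was at 193, 190.2 and 163 CPM in siNFKB2, 138, 127 and 115 in siRELB and 64.7, 30.8 and 38.6 in siNS, a log2 fold change of 1.76 (adjusted p = 0.00267). In both genes siNS replicate 1 was well above the other siNS libraries yet below every knockdown library. TMEM255A, a membrane protein, was at 12.3, 10.2 and 11.3 CPM in siNFKB2, 20.3, 14.9 and 14.8 in siRELB and 8.05, 2.06 and 3.07 in siNS, again with siNS replicate 1 the highest control. Its log2 fold change of 1.63 (adjusted p = 0.0192) lost its call without siNS replicate 2 (0.0589) or replicate 3 (0.122). CTHRC1, a secreted collagen-modulating protein, averaged 6.72 ± 2.92 CPM in siNFKB2, 6.28 ± 1.41 in siRELB and 2.16 ± 0.354 in siNS (SD, n = 3 each), a log2 fold change of 1.59 (adjusted p = 0.00951, and 0.0647 without siNS replicate 3).

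Non-coding and pseudogene transcripts were also among the large rises. LOC107986820 was at 173, 158 and 137 CPM in siNFKB2, 40.9, 31.3 and 33.8 in siRELB and 23.6, 14.4 and 16.4 in siNS, with log2 fold changes of 3.11 in siNFKB2 and 0.96 in siRELB. LOC107986160, a long non-coding RNA in RefSeq, had log2 fold changes of 2.66 in siNFKB2 and 0.78 in siRELB. Both were called between the knockdowns, at adjusted p of 0.000148 and 0.000134. LOC441666, a transcribed pseudogene in RefSeq, was at 11.2, 13.4 and 13.1 CPM in siNFKB2, 9.48, 9.16 and 9.52 in siRELB and 4.10, 2.56 and 3.24 in siNS, a log2 fold change of 1.71 (adjusted p = 0.00101). Pseudogene reads can be shared with near-identical copies, so its level is uncertain. The same holds for the histone genes HIST2H2BE and HIST1H2BJ, chosen after their values were seen, which rose by 1.22 and 0.91 in the average.

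Further shared rises were picked out after their values were seen and stand for no list. PTK2, focal adhesion kinase, was at 423, 399 and 397 CPM in siNFKB2, 429.9, 424 and 415 in siRELB and 334, 226 and 245 in siNS, a log2 fold change of 0.63 (adjusted p = 0.0128). The PTK2 call was lost without siNS replicate 2 (0.0558) or replicate 3 (0.103), and siNS replicate 1 was its highest control. FERMT2, the integrin activator kindlin-2, was at 200.2, 189 and 174 CPM in siNFKB2, 259, 266 and 259 in siRELB and 149.9, 109 and 118 in siNS, with the rise larger in siRELB (1.06) than in siNFKB2 (0.58, adjusted p of the difference = 0.0206). The same order was seen in CEMIP2, a cell-surface hyaluronidase (0.42 in siNFKB2 and 1.33 in siRELB), and in MFAP5, a microfibril protein (0.51 in siNFKB2 and 1.13 in siRELB). ANKRD1, an ankyrin-repeat protein induced by mechanical signals, averaged 637 ± 123 CPM in siNFKB2, 499 ± 27.7 in siRELB and 302 ± 32.2 in siNS (SD, n = 3 each), a log2 fold change of 0.90 (adjusted p = 0.00397). The growth factor FGF1 and the orphan nuclear receptor NR4A3 rose by 0.70 and 1.19 (adjusted p = 0.00384 and 0.00352), with closely similar values in siNFKB2 (0.68 and 1.11) and siRELB (0.72 and 1.26).

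Among shared falls averaging at least 5 CPM the largest was TXNIP, the thioredoxin-interacting protein that limits glucose uptake (chromosome 1, 145992435 to 145996600, minus strand). It was at 1.5, 1.16 and 0.993 CPM in siNFKB2, 5.02, 2.39 and 2.19 in siRELB and 11.9, 10.6 and 10.1 in siNS. The log2 fold change was -2.45 in the average (SE 0.251, adjusted p = 0.00101), and the fall was larger in siNFKB2 (-3.14) than in siRELB (-1.76, adjusted p of the difference = 0.0136). FST, the activin antagonist follistatin (chromosome 5, 53480409 to 53487134, plus strand), was at 39.1, 28.8 and 29.4 CPM in siNFKB2, 41.0, 36.2 and 37.8 in siRELB and 83.9, 115 and 91.8 in siNS. The highest of the 6 knockdown libraries was siRELB replicate 1, and it lay far below the lowest siNS library. The log2 fold change of FST was -1.46 (SE 0.133, adjusted p = 0.000774), with no difference called between -1.58 in siNFKB2 and -1.34 in siRELB. CCDC144NL-AS1, an antisense RNA (chromosome 17, 20868433 to 21002276, plus strand), had the smallest average p of the falls, at 30.2, 29.2 and 29.4 CPM in siNFKB2, 35.7, 33.8 and 32.5 in siRELB and 77.7, 79.4 and 85.3 in siNS. Replicates of each group were close together, and its log2 fold change was -1.35 (SE 0.0867, adjusted p = 0.000122). Its exons overlap those of several pseudogenes and of USP22.

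Among the other large falls, ITGB8, the integrin beta-8 subunit that activates latent TGF-beta, was at 13, 8.88 and 8.07 CPM in siNFKB2, 16.9, 10.2 and 9.96 in siRELB and 39.1, 24.0 and 26.5 in siNS. Replicate 1 was the highest library of its group in all 3 groups, and the log2 fold change was -1.42 (adjusted p = 0.0063). IGFBP5, which binds insulin-like growth factors, was at 36.3, 24.7 and 25.3 CPM in siNFKB2, 50.5, 42.4 and 43.7 in siRELB and 82.0, 98.9 and 93.6 in siNS, a log2 fold change of -1.34 (adjusted p = 0.00101). Its fall was larger in siNFKB2 (-1.67) than in siRELB (-1.01). H2AFY2, the histone variant macroH2A2, was at -1.41 on the log2 scale, the transcriptional co-regulator MN1 at -1.28 and the pseudokinase TRIB2 at -1.12, with adjusted p of 0.00184, 0.00192 and 0.00327. SLC2A4RG, a regulator of the GLUT4 gene, and SFXN2, a mitochondrial carrier, had averages of -1.22 and -1.06, both falls larger in siNFKB2 (-1.61 and -1.53) than in siRELB (-0.83 and -0.58). UBBP4, a ubiquitin B pseudogene whose reads may come from near-identical copies, fell by 2.05 on the log2 scale. RRS1, a ribosome biogenesis factor, averaged 82.3 ± 8.48 CPM in siNFKB2, 68.7 ± 2.47 in siRELB and 144 ± 45.3 in siNS (SD, n = 3 each), a log2 fold change of -0.94 (adjusted p = 0.00994, and 0.072 without siNS replicate 3).

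**Figure D4:**
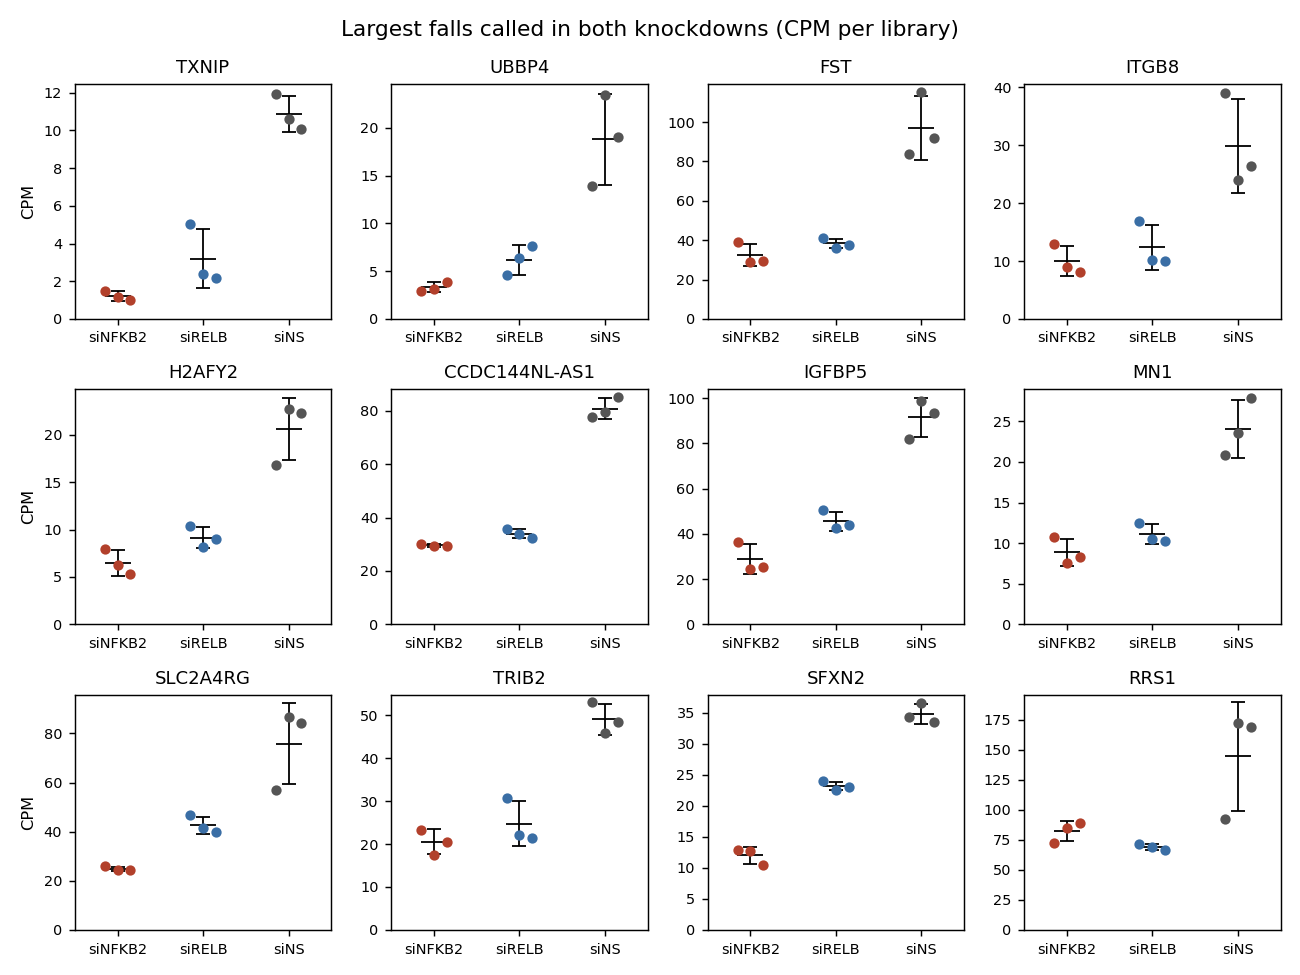
CPM per library (y axis, from 0, scale differs by panel) for the 12 largest shared falls with a mean of at least 5 CPM; points are replicates 1 to 3 from left to right, the long bar is the mean and the error bar 1 SD of 3 libraries. All siNFKB2 (red) and siRELB (blue) points lie below the siNS points (grey), which the choice of these genes required. In RRS1 siNS replicate 1 lies close to the knockdown libraries.

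Single matrix, growth factor and cell cycle genes were also among the shared falls. Fibronectin, FN1, was at 656, 557 and 537 CPM in siNFKB2, 867, 896 and 880.4 in siRELB and 1189, 1353 and 1233 in siNS, a log2 fold change of -0.81 (adjusted p = 0.00164). Thrombospondin-1, THBS1, was at 744, 631 and 619 CPM in siNFKB2, 831, 706 and 707 in siRELB and 1235, 1108 and 1109.7 in siNS, a log2 fold change of -0.71 (adjusted p = 0.0036). These were the most abundant shared falls, and for FN1 the siNFKB2 libraries lay below the siRELB libraries (adjusted p of the difference = 0.00297). AURKA, the mitotic kinase Aurora A, was at 155, 123 and 127 CPM in siNFKB2, 139, 124 and 119 in siRELB and 224, 226 and 219 in siNS, a log2 fold change of -0.77 (adjusted p = 0.00339). The lymphangiogenic factor VEGFC and the ephrin receptor EPHB2, chosen after their values were seen, had averages of -0.91 and -0.90 (adjusted p = 0.00354 and 0.00352). E2F5, a repressive E2F factor, fell by 0.99 on the log2 scale (adjusted p = 0.00907, and 0.0713 without siNS replicate 3), and 16.3% of its exonic length overlaps C8orf59 on the opposite strand.

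RefSeq promoters on GRCh38.p14, from 250 bases before to 50 bases after the gene start, were at hand for 76 of the 93 shared rises and 29 of the 37 shared falls, and for 11324 of the 14815 genes tested. They were searched on both strands for letters bound by NF-kB, by AP-1 and by other factors. The NF-kB consensus stood in 10.5% of the rises, 20.7% of the falls and 12.9% of all promoters. The narrower NF-kB form GGANTTTCC stood in 5.26% of the rises (4 genes), in none of the 29 falls and in 1.62% of all, and it can overlap the consensus. The AP-1 letters TGANTCA stood in 14.5% of the rises (11 genes), 6.9% of the falls and 5.17% of all. The E-box CACGTG stood in 2.63% of the rises, 3.45% of the falls and 9.8% of all, and TGACGTCA in 3.95%, 3.45% and 3.06%. These shares describe letters in a fixed window and were not tested.

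The NF-kB consensus was in 10.5% of the rises and 12.9% of all promoters. Shared falls such as FST, IGFBP5, ITGB8, SFXN2, STAC and VEGFC also held it, and their windows are not shown. These windows show the NF-kB letters in capitals for shared rises that encode an inflammatory mediator or receptor, on the strand of the gene:
CXCL8, chr4:73740468-73740497, plus strand: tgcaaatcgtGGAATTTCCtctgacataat
TNFRSF9, chr1:7940894-7940923, minus strand: gagctgtggtGGGAATTTCCcatgagaccc
PTX3, chr3:157436744-157436773, plus strand: ccaaattcagGGGAACTCCCgttaccgcag
The same promoters of CXCL8 and TNFRSF9, and those of PRR9, DCLK1 and ODAPH, hold the AP-1 letters, shown in capitals:
CXCL8, chr4:73740421-73740450, plus strand: aggaagtgtgaTGACTCAggtttgccctga
TNFRSF9, chr1:7940865-7940894, minus strand: ccgcccctggcTGAGTCAccgcactcctgt
PRR9, chr1:153217436-153217465, plus strand: atcccaagcagTGACTCAaaccatcggcaa
DCLK1, chr13:36131966-36131995, minus strand: tattccaagagTGACTCAtgtcttggggtt
ODAPH, chr4:75556009-75556038, plus strand: caggctgctggTGACTCAccagctcccctt
In CXCL8 the NF-kB letters start 91 bases and the AP-1 letters 137 bases before the RefSeq start. That start differs from the GENCODE start given above for CXCL8. In TNFRSF9 the NF-kB and AP-1 letters start 74 and 44 bases before its RefSeq start. Both genes rose in both knockdowns, by 3.92 and 1.57 in siNFKB2 and by 2.27 and 1.91 in siRELB. IL24, which also rose in both, had none of these letters in its window, which says nothing of the stretches outside it.

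Of the genes called in the average, 46 were called in neither knockdown alone, 20 higher and 26 lower. PTPRJ, a receptor tyrosine phosphatase, averaged 62.9 ± 4.18 CPM in siNFKB2, 73.3 ± 3.71 in siRELB and 50.5 ± 5.65 in siNS (SD, n = 3 each), a log2 fold change of 0.43 (adjusted p = 0.0292). It was at adjusted p of 0.0759 in siNFKB2 and 0.0507 in siRELB. ISOC1 changed by 0.52, FLG by 1.03 and ADCY9, an adenylate cyclase, by 0.41, with adjusted p of 0.0346, 0.0352 and 0.0377. On the lower side, the centriole protein gene CNTLN changed by -0.53, C7orf50 by -0.71, the complex I subunit NDUFB10 by -0.49 and LOC105373487 by -0.42, at adjusted p of 0.0302 to 0.0363. LOC105373487 lies next to LOC442028 on chromosome 2 in RefSeq, and LOC442028, chosen for this after its values were seen, was called lower in both, at -0.90 in siNFKB2 and -0.65 in siRELB. Each of these 8 genes called in the average alone lost its call in 7 of the 9 fits that left out 1 library, and kept it only without siNS replicate 1 or siNFKB2 replicate 1. In FLG, ISOC1, C7orf50 and NDUFB10 siNS replicate 1 lay within the range of the knockdown libraries. With siNS replicate 3 left out, the adjusted p of all 8 genes was 0.0948 to 0.186.

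In the genes named by the rule for a difference between the knockdowns, siNFKB2 lay farther from siNS than siRELB did. BLMH, the cysteine protease bleomycin hydrolase, was at 42.0, 28.1 and 37.5 CPM in siNFKB2, 159.7, 172 and 173 in siRELB and 178, 185 and 184 in siNS. Its average of -1.23 (adjusted p = 0.000785) combined -2.35 in siNFKB2 with -0.12 in siRELB, where no change was called (adjusted p = 0.716). ADAMTS15, a secreted metalloprotease, was at 2.42, 2.26 and 2.25 CPM in siNFKB2, 8.61, 7.97 and 8.15 in siRELB and 10.4, 12.6 and 12.3 in siNS, an average of -1.43. HAUS4, an augmin subunit of the spindle, had an average of -1.14 from -1.75 in siNFKB2 and -0.53 in siRELB, and 30.9% of its exonic length overlaps another gene model on the same strand. For ADAMTS15 and HAUS4 the siRELB value was on the same side but was not called (adjusted p = 0.109 and 0.0734). IL24, PRR9, LOC107986820, LOC107986160 and UBBP4 were the other genes named by the rule for such differences, and all of these were called in both knockdowns.

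The gene lists show the same contrast at the level of groups. Of 52 DNA replication genes, 30 were called in the average, all 30 lower, with a median of -0.52, against 5.52% of all genes called lower and a median of -0.02. In siNFKB2 41 of the 52 fell (median -0.91), against 13.5% of all genes. Between the knockdowns 29 of the 30 differed, against 949 of all 1568 genes called in the average. In siRELB edgeR called 0 of the 52 (median -0.14), against 2.02% of all genes. Of the 52, 4 were at an unadjusted p below 0.05 and 2 were called by DESeq2, which called 879 of all genes in siRELB. MCM3, a subunit of the replicative helicase, was at 145, 106 and 104 CPM in siNFKB2, 263, 253 and 268 in siRELB and 306, 316 and 319 in siNS. MCM7, of the same helicase, had an average of -0.68 from -1.01 in siNFKB2 and -0.36 in siRELB. Mitosis genes fell in 25 of 53, with medians of -0.72 in siNFKB2 and -0.10 in siRELB, and AURKA was the member called in both. CDC20, the anaphase activator, and the kinesin KIF2C had -1.5 and -0.80 in siNFKB2 and -0.20 and -0.31 in siRELB. Homologous recombination genes fell in 12 of 51 (median -0.22), with the helicase gene BLM at -1.08 in siNFKB2 and -0.02 in siRELB. In siRELB edgeR called 0 of the 51, again against 2.02% of all genes, with 4 at an unadjusted p below 0.05 and 1 called by DESeq2. The E2F and cyclin list had 3 rises and 7 falls of 27, E2F1 at -0.77 and CCNE1 at -0.84, and E2F5 was its member called in both. BLM lost its average call without siNS replicate 3 (adjusted p = 0.0835). Without that library the counts were 10 for replication, 6 for mitosis and 1 for recombination, where 240 of all genes were called, against 1568 with all libraries. The counts reached 36 for replication and 28 for mitosis without siNFKB2 replicate 1, where 2146 of all genes were called. For recombination the count reached 17 without siNS replicate 1, where 3331 of all genes were called.

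Part of the NF-kB target genes rose in the average. Of 27 NF-kB targets other than cytokines, 10 were called, all 10 higher, against 5.06% of all genes called higher, with medians of 0.62 in the average, 1.29 in siNFKB2 and 0.16 in siRELB. PTX3 was the member called in both. The inflammatory gene TNFAIP2 and the stromelysin MMP10 had 2.02 and 2.20 in siNFKB2, and 0.45 and 0.69 in siRELB, neither called in siRELB. Of 22 chemokines and cytokines, 5 were called in the average, all 5 higher (median 0.51), and CXCL8 and IL24 were called in both. IL1A was at 17.3, 35.1 and 34.4 CPM in siNFKB2, 4.92, 4.66 and 4.65 in siRELB and 3.42, 3.56 and 4.45 in siNS. CCL20, a chemokine for lymphocytes and dendritic cells, was at 11.6, 49.3 and 39.1 CPM in siNFKB2, 1.79, 2.60 and 2.90 in siRELB and 1.79, 2.06 and 2.31 in siNS. In both, siRELB was close to siNS and siNFKB2 replicate 1 was far below the other siNFKB2 libraries, and its remaining NFKB2 level was the lowest of the 3. The average call was lost without siNS replicate 3 for CCL20 (adjusted p = 0.0777) and TNFAIP2 (0.0567), and for CCL20 also without siNS replicate 2 (0.0619). Without siNS replicate 3 the counts were 2 of the 27 targets and 3 of the 22 cytokines, where 240 of all genes were called. Without siNFKB2 replicate 1 they were 13 and 9, where 2146 of all genes were called.

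Genes of the NF-kB pathway itself moved in part. Of 15 restraints on NF-kB, 4 rose, against 5.06% of all genes, among them the deubiquitinase gene CYLD, at 179, 204 and 179 CPM in siNFKB2, 114, 93.5 and 88.4 in siRELB and 82.9, 56.5 and 64.1 in siNS (average 1.00, adjusted p = 0.00396). TNIP3, an inhibitor of NF-kB signalling, was low, with a siNFKB2 mean of 2.77 ± 0.584 CPM, a siRELB mean of 1.05 ± 0.291 and a siNS mean of 0.439 ± 0.261 (SD, n = 3 each). Of 27 upstream components 4 rose, among them TRAF1, an adaptor of TNF receptors, at 68.8, 317 and 266 CPM in siNFKB2, 24.6, 47.8 and 47.1 in siRELB and 14.7, 14.8 and 17.1 in siNS. Its average was 2.58 (adjusted p = 0.00841, and 0.0611 without siNS replicate 3), with no call in siRELB (adjusted p = 0.181). BIRC3, the ubiquitin ligase cIAP2, had 3.11 in siNFKB2 and 0.06 in siRELB. The average calls of TNIP3 and BIRC3 were lost without siNS replicate 2 (adjusted p = 0.0573 and 0.0802) or replicate 3 (0.0916 and 0.109). MAP3K14, the kinase that starts the non-canonical branch, averaged 57.6 ± 5.12 CPM in siNFKB2, 51.5 ± 2.91 in siRELB and 35.5 ± 4.06 in siNS (SD, n = 3 each), a log2 fold change of 0.62 (adjusted p = 0.00951, and 0.0637 without siNS replicate 3). In siRELB alone MAP3K14 was not called (adjusted p = 0.0622). The canonical subunits NFKB1 and RELA were at 0.39 and 0.16 in the average and were not called (adjusted p = 0.0544 and 0.322).

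**Figure D5:**
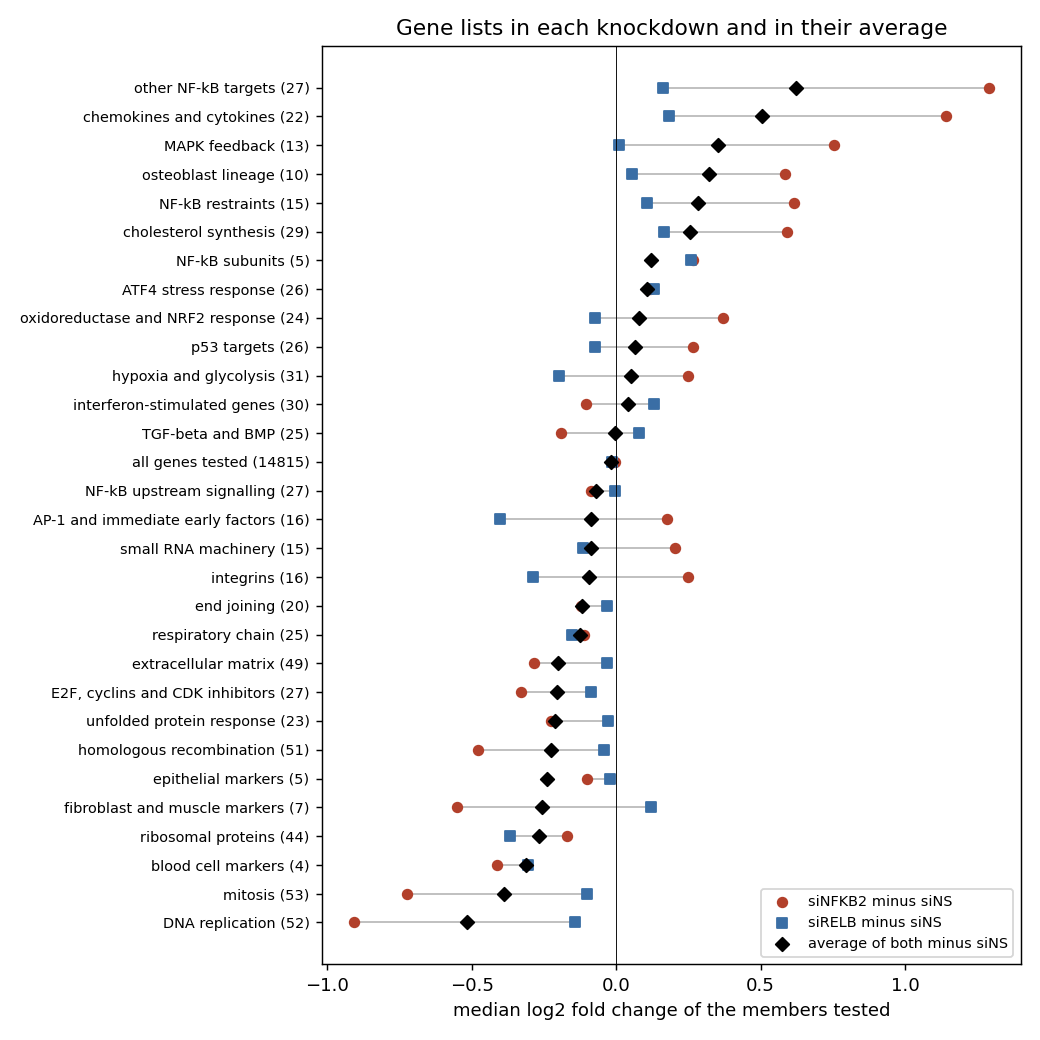
The median log2 fold change (x axis) of the tested members of each gene list (y axis, number tested in brackets) in siNFKB2 against siNS (red circles), siRELB against siNS (blue squares) and their average (black diamonds). The NF-kB target and cytokine medians lie at 1.29 and 1.14 in siNFKB2 against 0.16 and 0.18 in siRELB, the replication median lies at -0.91 against -0.14, and the ribosomal protein median lies at -0.17 against -0.37.

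The next lists are read against 5.06% of all genes called higher and 5.52% called lower in the average, and 0.25% called lower in both. Extracellular matrix genes fell in 10 of 49 and rose in 2, and FN1 and THBS1 were called lower in both. EFEMP1, a fibulin, was at 22.9, 10.2 and 10.3 CPM in siNFKB2, 113, 113 and 113 in siRELB and 135, 126 and 129 in siNS, so its average of -1.68 came from siNFKB2. COL11A1, a fibrillar collagen chain, had values nearer each other, -0.74 in siNFKB2 and -0.52 in siRELB (adjusted p = 0.0539 in siRELB). Of 16 integrins 5 fell and 1 rose, with ITGB8 called in both, ITGA4 at -1.45 in siNFKB2 and -0.97 in siRELB, and ITGB3 at -2.53 in siNFKB2 and -0.31 in siRELB. Of 25 TGF-beta and BMP genes 3 rose and 6 fell, FST in both knockdowns, and ID1, a target of BMP signalling, at -1.77 in siNFKB2 and -0.36 in siRELB. Of 29 cholesterol synthesis genes 9 were called in the average, all 9 higher (median 0.26). In siRELB edgeR called 0 of the 29, against 2.02% of all genes. Of the 29, 9 were at an unadjusted p below 0.05 and 5 were called by DESeq2, which called 879 of all genes in siRELB. HMGCS1, an early enzyme of that pathway, was at 1318, 1967 and 1756 CPM in siNFKB2, 702, 763 and 769 in siRELB and 563, 409 and 459 in siNS, and SQLE, squalene epoxidase, had 1.51 in siNFKB2 and 0.53 in siRELB. Without siNS replicate 3 the counts called were 5 for matrix, 3 for integrins, 2 for TGF-beta and BMP, and 3 for cholesterol synthesis. They reached 19, 8 and 11 without siNS replicate 1 and 16 for cholesterol synthesis without siNFKB2 replicate 1.

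Ribosomal protein genes had medians of -0.17 in siNFKB2 and -0.37 in siRELB. Between the knockdowns 3 of the 44 differed, against 26.6% of all genes. In the average 4 of 44 fell (median -0.27), RPS12 at -0.30 in siNFKB2 and -0.82 in siRELB, and RPS23 at -0.59 in siNFKB2 and -0.41 in siRELB. The 4 falls stand against 5.52% of all genes called lower. Without siNS replicate 1, in which the members had a median 0.35 below the siNS mean, 23 were called. That fit called 3331 of all 15169 genes. The number was 0 without siNS replicate 2 or 3, siNFKB2 replicate 2 or any single siRELB library. Those fits called 240 to 1088 genes in all. Among 30 interferon-stimulated genes 2 rose and 1 fell, near the 5.06% of all genes called higher and the 5.52% called lower. They included GBP1 at -0.19 in siNFKB2 and 1.93 in siRELB, and IFI44 at -0.90 in siNFKB2 and -0.97 in siRELB. Of 24 oxidoreductase and NRF2 genes 3 rose and TXNIP fell, with the haem oxygenase HMOX1 at 1.67 in siNFKB2 and 0.02 in siRELB. Of 25 respiratory chain genes edgeR called 0 in the average, with 7 at an unadjusted p below 0.05, 4 called by DESeq2 and 6 called without siNS replicate 1. Over all genes DESeq2 called 2414 of 14815, and the fit without siNS replicate 1 called 3331 of 15169. Of 10 tested osteoblast lineage genes 3 rose and 1 fell, the alkaline phosphatase ALPL at 2.02 in siNFKB2 and 0.51 in siRELB and the transcription factor RUNX2 at -1.36 in siNFKB2 and -0.32 in siRELB. Neither was called in siRELB. Of 4 tested blood markers edgeR and DESeq2 called 0, with 1 at an unadjusted p below 0.05, and of 7 tested fibroblast and muscle markers 1 fell. Without siNS replicate 3 the average calls of RPS12, RPS23, GBP1, ALPL and RUNX2 were lost, at adjusted p of 0.0944, 0.113, 0.187, 0.186 and 0.055, and all of these except RUNX2 were lost with other single libraries left out as well.

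In the remaining lists the counts are read against 5.06% of all genes called higher and 5.52% called lower in the average. Of 13 feedback genes of the MAPK pathway 4 rose, of 16 AP-1 and immediate early genes 2 rose and 1 fell, and of 15 genes of the small RNA machinery 1 rose. Of 31 hypoxia and glycolysis genes 2 rose and 3 fell, the vasodilator peptide gene ADM at -0.64 in siNFKB2 and -1.77 in siRELB and NDRG1 at -2.10 in siNFKB2 and 0.09 in siRELB. The call of ADM was lost without siNS replicate 2 (adjusted p = 0.0695) or 3 (0.0868), and that of NDRG1 without siNS replicate 3 (0.079) or siRELB replicate 2 (0.0524) or 3 (0.0502). In the last lists the counts were near those shares of all genes. Of 26 p53 targets 2 rose and 1 fell, of 23 genes of the unfolded protein response 2 rose and 1 fell, of 26 ATF4 targets 2 rose, and of 20 end joining genes 2 fell.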

How the data were processed

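RNA-seq libraries of 3 siNFKB2, 3 siRELB and 3 siNS samples were analysed. Groups and replicate numbers came from the labels, which do not name separate cultures. The p-values therefore reflect variation among these libraries, and that variation may be technical. The authors deposited whole-number read counts per gene symbol for each library, with no normalization. The submitters' processing notes list Trimmomatic 0.38, STAR 2.7.1a, Subread 1.6.4 and GRCh38.p13. What each tool did, the annotation and the use of strand are not given there. Within groups, library pairs differed by more than counting noise (chi-square per degree of freedom 3.13 to 75.8), so all 9 were counted as samples. Entries with a suffix for further placements held at most 0.0369% of counts and were kept apart.

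On these counts, filterByExpr chose the genes tested and TMM scaled the libraries in edgeR 4.0.16 (R 4.3.3). A single fit with 3 group means was tested by edgeR's quasi-likelihood F test for (siNFKB2 + siRELB)/2 minus siNS, for each knockdown minus siNS, and for siNFKB2 minus siRELB, with Benjamini-Hochberg adjustment over the 14815 genes tested and calls below 0.05. Any adjusted p without a named method is from this test. A gene was called the same way in both when both separate comparisons were called with 1 sign. Levels are CPM on TMM-scaled library sizes, and SE is the absolute log2 fold change over the square root of F. Lists are given as counts and medians beside all genes, with no set test. The procedure was tested on simulated data.

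Named genes were NFKB2 and RELB, the 12 largest shared rises and falls (mean over libraries at least 5 CPM, knockdown libraries clear of siNS), the 4 genes each way with the smallest p among those called in the average alone and among those that differed between knockdowns, and up to 4 members per list plus those called in both. Not every gene that meets the rule is reported here, and genes outside it are said to be chosen after their values were seen. The shared genes, lists and rule were chosen with earlier results of these data known. Alternatives were DESeq2 1.42.0, RLE size factors, other filters and thresholds, a replicate block, a 2-group fit, and fits without single libraries or without those numbered 1.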

Additional observations from a re-analysis of the deposited data

Results flagged for a closer look

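Of the 102 genes named, 54 differed between siNFKB2 and siRELB by edgeR's quasi-likelihood F test, at adjusted p of 2.89e-05 to 0.0466, so their average joins unequal effects. The values are siNFKB2 minus siRELB on the log2 scale. The knocked-down genes themselves were at -2.58 for NFKB2 and 3.06 for RELB. Among inflammatory and NF-kB pathway genes the differences were 1.64 for CXCL8, 3.07 for IL24, 2.61 for IL1A, 3.78 for CCL20, 1.57 for TNFAIP2, 1.51 for MMP10, 0.93 for CYLD, 1.39 for TNIP3, 2.45 for TRAF1, 3.05 for BIRC3 and -2.12 for GBP1. Among other shared rises they were 3.14 for PRR9, 2.14 for LOC107986820, 1.88 for LOC107986160, 0.53 for HIST2H2BE and 0.90 for F2RL2. A negative difference in a shared rise means a larger rise in siRELB, as in -0.85 for DSP, -0.65 for CLDN1, -0.59 for FLG-AS1, -0.48 for FERMT2, -0.91 for CEMIP2 and -0.62 for MFAP5. ROBO1, just outside the shared rises, had -0.41. Among shared falls the differences were -1.38 for TXNIP, -0.89 for UBBP4, -1.15 for NXPH2, -0.66 for IGFBP5, -0.78 for SLC2A4RG, -0.95 for SFXN2 and -0.60 for FN1, all larger falls in siNFKB2. Replication, cell cycle and repair genes had -1.05 for BLM, -0.65 for MCM7, -1.14 for MCM3, -0.49 for KIF2C, -1.30 for CDC20, -1.27 for E2F1, -0.64 for CCNE1 and -1.22 for HAUS4. Matrix, adhesion and differentiation genes had -1.83 for ADAMTS15, -2.96 for EFEMP1, -2.22 for ITGB3, -1.42 for ID1, -1.04 for RUNX2, 1.52 for ALPL and -0.92 for KRT8. Metabolic, stress and ribosomal genes had -2.23 for BLMH, 1.17 for HMGCS1, 0.98 for SQLE, 1.13 for ADM, -2.19 for NDRG1, 1.64 for HMOX1 and 0.52 for RPS12. Groups of 3 libraries are too small to look for single outlying values.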

How the results depend on the processing

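The counts depended on the choice of libraries and of the fit. The average called 1568 genes with all libraries, 2414 by DESeq2, 5105 without the 3 libraries numbered 1, 41 in the 2-group fit, 333 at an absolute log2 fold change of at least 1, 397 at an adjusted p below 0.01, and 240 to 3331 with single libraries left out. Genes called the same way in both numbered 130, against 360 by DESeq2, 1678 without the libraries numbered 1, 44 at an absolute log2 fold change of at least 1, 15 at an adjusted p below 0.01, 10 with the larger p adjusted once, and 5 to 1012 with single libraries left out. Genes called in the average that differed between siNFKB2 and siRELB numbered 949, against 1444, 3076, 201 and 224 under the first alternatives in that order (DESeq2, libraries numbered 1 left out, fold, adjusted p), and 174 to 1605 with single libraries left out. RLE size factors, no filter, a mean of at least 5 CPM and summed further placements kept all 3 counts within 1.5 times. The siRELB comparison alone called 15 to 1819 genes with single libraries left out. The cause of these changes was not tested.

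With the replicate number as a block, the average called 3680 genes, 662 genes were called the same way in both (all 130 among them) and 2257 of the average differed between the knockdowns. The numbers were not taken as pairs: the deviations from the group mean correlated at 0.585, 0.594 and 0.535 between libraries numbered 1, at 0.376 (siRELB and siNS), 0.171 (siNFKB2 and siRELB) and 0.0545 (siNFKB2 and siNS) between those numbered 2, and at 0.45 (siNFKB2 and siRELB), 0.0914 (siNFKB2 and siNS) and 0.0439 (siRELB and siNS) between those numbered 3, so not every pair passed 0.1.

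No named gene reversed under any alternative, and the 102 named genes lost a call 206 times over all alternatives. Of the 102, 99 were called in the average with these same libraries. For the largest shared rises and falls the rule also required knockdown libraries clear of siNS. The lack of reversals thus largely follows from the choice of genes and is no support for them. List medians that changed sign were 0.0681 for the integrins in the 2-group fit, -0.00993 for interferon-stimulated genes with no filter, and, with single libraries left out, those of the NF-kB subunits (-0.127 without siNS replicate 2, to 0.161), AP-1 and immediate early genes (-0.369 to 0.0683 without siNS replicate 3), interferon-stimulated genes (-0.041 without siRELB replicate 1, to 0.108), the small RNA machinery (-0.0811 to 0.0724 without siNS replicate 1) and TGF-beta and BMP genes (-0.0534 to 0.0766 without siNS replicate 3). The TGF-beta and BMP median, -0.00377 with all libraries, was also above 0 in 4 other alternatives (0.00648 to 0.0503). With 15011789 to 19279572 counts per library and 3 libraries a group, small changes, and those of genes near the filter, are the least certain.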
